A study of Mus musculus with 6 samples.

Results

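Cells make cholesterol from acetyl-CoA through mevalonate, isoprenoid diphosphates, squalene and lanosterol, and they take it up from lipoproteins, store it as esters or pass it out through ABC transporters. When sterols in the membrane of the endoplasmic reticulum run low, SCAP carries the SREBP transcription factors to the Golgi, where they are cut and released to switch on the synthesis genes, and INSIG proteins hold them back when sterols are plentiful. When oxysterols build up, the LXR receptors switch on the efflux transporters. The genes examined here were 33 members of these routes, chosen by name: 8 of the mevalonate steps, 12 of the sterol steps, 5 of SREBP control, 4 of uptake, transport and storage, and 4 of efflux. Of these, 32 were among the 17831 genes of the table and all 32 had enough reads to be tested. Nr1h3, which encodes LXRα, was not analysed here.

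Expression was measured by bulk RNAseq in lung group 2 innate lymphoid cells (ILC2s), tissue-resident lymphocytes that release type 2 cytokines, with 3 libraries from wild-type mice (WT, labelled CB57BL/6) and 3 from mice lacking the inhibitory receptor SIRPα (SIRPα KO, labelled SIRPalphatm1Ynliu/J). All mice were 6 to 8 weeks old and received rmIL-33 intranasally for 3 days. Lung ILC2s were sorted on day 4 as CD45+ ST2+ CD127+ lineage-negative cells and kept in culture in medium with 10% serum, rmIL-7 and rmIL-2 (10 ng/mL of each cytokine). The stated culture time is 18 h in one place and 24 h in another. The serum is a source of lipoprotein cholesterol shared by both groups. No promoter or Cre that would limit the deletion to ILC2s is named, and whether a library holds cells of 1 animal or of several is not stated. Per the sample descriptions, WT replicates 1 and 2 carry the code 37 and SIRPα KO replicates 2 and 3 the code 44, in each pair once with a suffix. Nothing says that all 3 libraries of a group came from separate animals or cultures, so the p-values measure only the spread between these libraries, which may be technical.

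The libraries held 13980491 to 19051504 reads assigned to genes. The Sirpa gene itself had 149, 96 and 73 reads in WT and 48, 85 and 28 in SIRPα KO, which is 6.74 ± 1.87 CPM (read counts scaled to library size; mean ± SD, n = 3) against 3.09 ± 1.36. The groups did not overlap, but the difference did not pass the test (log2 fold change -1.12, edgeR adjusted p = 0.116), and which part of the gene the allele removes is not given in the sources used here. All 20 ILC2 markers, such as Gata3, Il1rl1 and Il7r, were at 1 CPM or more in every library, with a summed level of 15800 to 17000 CPM in WT and 21600 to 22200 CPM in SIRPα KO. Il5 alone made up 8450 to 9710 CPM of that sum in WT and 12600 to 13200 CPM in SIRPα KO. Of the 20, 3 were higher (Il5, Il2ra and Ptprc) and 2 lower (Thy1 and Id2), with a median log2 fold change of 0.14. B cell markers summed to 217 to 479 CPM in WT and 23.2 to 85.0 CPM in SIRPα KO, with 5 of 6 tested lower, and T cell markers to 205 to 274 and 123 to 132 CPM, with 3 of 4 lower. Macrophage and monocyte markers, from cells that handle much cholesterol, summed to 416 to 897 CPM in WT and 490 to 754 CPM in SIRPα KO, with 1 of 10 tested higher, Itgam, at 0.46 to 3.98 CPM in WT and 9.33 to 13.3 CPM in SIRPα KO. Most of that sum was Chil3, at 371 to 765 and 409 to 643 CPM. Granulocyte and mast cell markers stayed between 1.92 and 29.7 CPM, epithelial and stromal markers between 49.2 and 113 CPM (Epcam lower and Pecam1 higher of 4 tested), and proliferation genes between 5670 and 6480 CPM (Bub1 higher and Ube2c, Birc5, Ccnb2 and Pcna lower of 24 tested). The part of these other cells in the values below was not tested, and in bulk RNA fewer cells of a type and less RNA per cell cannot be told apart.

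Of the 8 members that changed between the groups, 7 have a single entry in the RefSeq promoter table, and the 150 bases before their start sites are shown because these members carry the result and because promoters of this pathway are classically read by SREBP together with NF-Y, the factor that binds the CCAAT box. Capitals mark the sterol regulatory element core TCACNCCAC and the CCAAT box (ATTGG when it lies on the opposite strand). Sequences are 5′ to 3′ on the strand of the gene in build GRCm38.p6, at chr13:119690201-119690350 (+) for Hmgcs1, chr13:8885456-8885605 (+) for Idi1, chr13:14063489-14063638 (-) for Ggps1, chr5:4104698-4104847 (-) for Cyp51, chrX:8193513-8193662 (-) for Ebp, chr9:42264301-42264450 (-) for Sc5d, chr12:84773113-84773262 (-) for Npc2.
Hmgcs1: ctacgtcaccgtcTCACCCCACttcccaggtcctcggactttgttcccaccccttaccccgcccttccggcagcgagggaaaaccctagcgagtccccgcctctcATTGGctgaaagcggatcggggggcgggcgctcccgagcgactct
Idi1: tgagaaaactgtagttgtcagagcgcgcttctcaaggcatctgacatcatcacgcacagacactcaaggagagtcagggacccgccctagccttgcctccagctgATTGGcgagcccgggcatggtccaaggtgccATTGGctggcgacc
Ggps1: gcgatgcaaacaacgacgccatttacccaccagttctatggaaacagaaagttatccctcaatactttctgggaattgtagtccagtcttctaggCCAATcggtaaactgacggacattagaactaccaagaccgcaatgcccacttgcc
Cyp51: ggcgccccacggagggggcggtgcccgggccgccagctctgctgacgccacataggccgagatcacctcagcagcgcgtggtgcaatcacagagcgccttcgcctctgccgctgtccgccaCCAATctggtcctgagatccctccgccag
Ebp: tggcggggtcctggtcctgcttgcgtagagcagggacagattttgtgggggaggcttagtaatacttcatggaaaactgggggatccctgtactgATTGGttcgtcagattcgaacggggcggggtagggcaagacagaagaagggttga
Sc5d: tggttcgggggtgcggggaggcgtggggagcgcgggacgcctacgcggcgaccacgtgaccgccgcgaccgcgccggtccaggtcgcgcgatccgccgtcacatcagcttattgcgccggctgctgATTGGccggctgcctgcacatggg
Npc2: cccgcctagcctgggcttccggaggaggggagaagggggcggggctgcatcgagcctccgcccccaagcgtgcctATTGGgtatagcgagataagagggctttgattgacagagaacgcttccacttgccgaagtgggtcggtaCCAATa

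Over the window from 250 bases before to 50 after the start, searched on both strands, 26 of the 32 members had a promoter in the table, with 34 promoters between them. The sterol element core was found in 1 member, Hmgcs1, beginning at position -137, and in 1.24% of all 32851 promoters. The CCAAT box was found in 22 of the 26 members and in 37.4% of all promoters. Members were counted as genes with a match in any of their promoters, and the percentages are of single promoters, so the counts and percentages are not directly comparable. The shown stretches hold 1 CCAAT box each in Hmgcs1, Ggps1, Cyp51, Ebp and Sc5d and 2 each in Idi1 and Npc2, so it was present both in members that were higher and in members that were lower. The direct repeat read by LXR, AGGTCA followed by AGGTCA with 4 bases between, was found in no member and in 0.0152% of all promoters. Only exact matches were counted, so a site with other letters would be missed, and no match does not mean that a promoter lacks a site. Stard4, Fdps, Fdft1, Sqle, Npc1 and Abcg1 had no promoter in the table and were not searched. A match is a description of the letters, not of binding.

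Across the 32 members, 6 were higher and 2 were lower in SIRPα KO, which is 25% of them. Among all 13623 genes tested, 11.7% changed, 5.94% upward and 5.81% downward. The 6 were Idi1, Hmgcs1 and Ggps1 of the mevalonate steps, Cyp51 and Sc5d of the sterol steps, and Scap of SREBP control. The 2 were Ebp, of the sterol steps, and Npc2, of lysosomal export. These calls held for Idi1 and Scap alone once length and GC content of the transcripts were corrected for, and for no member when any 1 SIRPα KO library was left out. In 16 members the groups did not overlap, 11 upward and 5 downward, which is a share close to the 42.8% of all genes whose groups did not overlap. The median log2 fold change was 0.17 for the members and -0.03 for all genes.

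**Figure D1:**
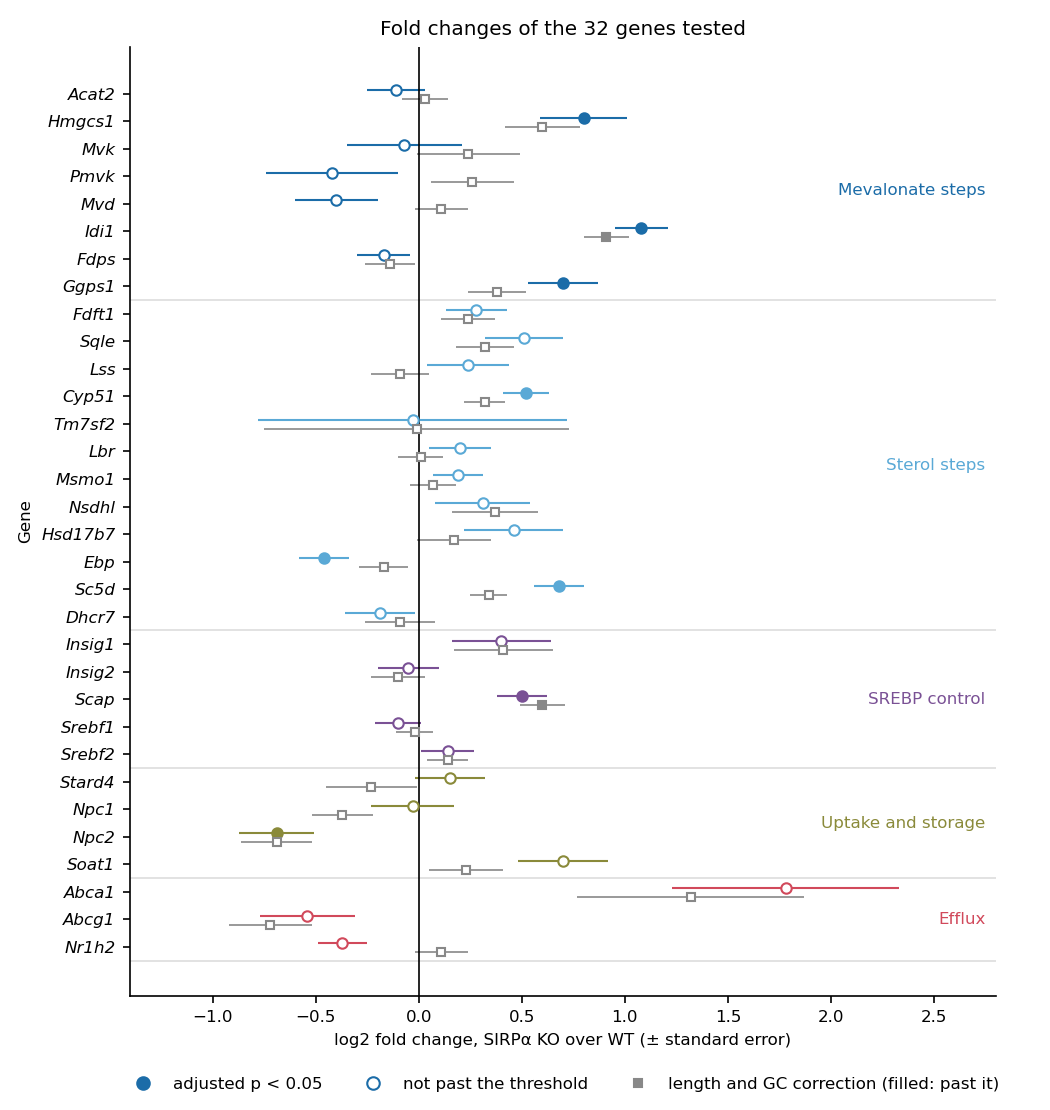
Log2 fold change (x axis) of the 32 genes tested (y axis), in the order of the route. Circles give the value from edgeR and squares the value after correction for transcript length and GC content, bars are standard errors, and filled symbols passed an adjusted p of 0.05; 8 circles are filled, 6 to the right and 2 to the left of zero, and 2 squares, Idi1 and Scap.

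The mevalonate steps held the largest called change. Idi1, the isomerase that balances the isoprenoid building blocks isopentenyl and dimethylallyl diphosphate (chr13:8885501-8892451), had 153, 169 and 125 CPM in the WT libraries and 328, 307 and 305 CPM in the SIRPα KO libraries. The lowest SIRPα KO library lay far above the highest WT library, and the SIRPα KO values were close together. The log2 fold change was 1.08 ± 0.13 (standard error; edgeR adjusted p = 0.00916).

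Hmgcs1, the synthase that makes HMG-CoA at the entry to the route (chr13:119690379-119708260), had 70.3, 82.3 and 46.0 CPM in WT and 129, 108 and 109 CPM in SIRPα KO. The groups did not overlap, and WT replicate 3 was the lowest. The log2 fold change was 0.80 ± 0.21 and lay just inside the threshold (adjusted p = 0.0497). Ggps1, which makes the geranylgeranyl diphosphate that anchors small GTPases to membranes (chr13:14050659-14063488), had 51.0, 41.8 and 35.1 CPM in WT and 75.2, 68.6 and 64.3 CPM in SIRPα KO. Its groups did not overlap either (log2 fold change 0.70 ± 0.17, adjusted p = 0.0396). On the opposite strand, 12.1% of the exonic bases of Hmgcs1 overlap Gm48342, 9.2% of those of Idi1 overlap Gm48574 and 5.4% of those of Ggps1 overlap Arid4b, and strand use in counting is not stated. Parts of these transcripts also match other genes. Idi1 matched Gm13502 in 100% of bases over 22.6% of the transcript and Gm35570 in 97.7% over 22.5%. Ggps1 matched Gm5630 in 97.2% over 21.3%. How multiply mapped reads were treated is not stated either.

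The other 5 mevalonate members did not pass the test, and their log2 fold changes ran from -0.42 to -0.07. Mevalonate is phosphorylated by Mvk (-0.07) and then by Pmvk (-0.42) and decarboxylated by Mvd (-0.40, with all SIRPα KO libraries below all WT libraries). Fdps, which joins the building blocks into farnesyl diphosphate, was at -0.17, and the thiolase Acat2 at -0.11. For Acat2, part of the reads cannot be told apart from those of its near-identical copy Acat3, which matched 97.7% of bases over 65.6% of the transcript. The Fdps exons overlap those of Gm43738 on the same strand over 26.7% of their length. Over all 8 members the median was -0.09, with 3 above and 5 below zero. The 5 have transcripts of 1194 to 2953 bases and the 3 of 3027 to 4244, and with length and GC content corrected, as described further on, 7 of the 8 were above zero.

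Of the 12 sterol members, 9 were above and 3 below zero, with a median of 0.26. Sc5d, the sterol desaturase near the end of the route (chr9:42251595-42264256), had 117, 122 and 99.1 CPM in WT and 188, 181 and 173 CPM in SIRPα KO. All SIRPα KO libraries were higher (log2 fold change 0.68 ± 0.12, adjusted p = 0.0184). Cyp51, the demethylase that acts on lanosterol (chr5:4081145-4104746), had 148, 132 and 126 CPM in WT and 196, 204 and 183 CPM in SIRPα KO. These groups were also apart (log2 fold change 0.52 ± 0.11, adjusted p = 0.0300).

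Ebp, the isomerase that shifts a double bond in the sterol ring (chrX:8185329-8193512), went the other way. It had 95.6, 107 and 111 CPM in WT and 77.8, 74.1 and 75.4 CPM in SIRPα KO, with no overlap (log2 fold change -0.46 ± 0.12, adjusted p = 0.0453). Ebp acts just before Sc5d in the route, so the neighbouring steps had changes of opposite sign. Their transcripts differ in length, with 1743 bases for Ebp and 4787 for Sc5d, and fold changes ran with length across the table, as described further on. With length and GC content corrected, Ebp was at -0.17 with overlapping groups and Sc5d at 0.34, and neither was called.

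Squalene epoxidase, Sqle, a control point of the sterol steps, had 151, 135 and 89.1 CPM in WT and 186, 175 and 172 CPM in SIRPα KO. Its groups did not overlap, yet the difference did not pass the test (log2 fold change 0.51 ± 0.19, adjusted p = 0.116), and WT replicate 3 stood well below the other WT libraries. Without that replicate it passed, at 0.32. The remaining 8 sterol members ran from -0.19 for Dhcr7, the reductase of the last step, to 0.46 for Hsd17b7. Hsd17b7 and Msmo1 (0.19), which take part in stripping methyl groups from lanosterol, had no overlap between the groups, and Nsdhl (0.31), the dehydrogenase of the same reactions, had overlapping groups. Squalene synthase, Fdft1, was at 0.28. It shares 18.3% of its exonic bases with Ctsb on the opposite strand and matched Gm6781 in 97.4% of bases over 33.7% of its transcript. Lanosterol synthase, Lss, was at 0.24, and the sterol reductase Lbr, which is also a protein of the nuclear envelope, at 0.20. Tm7sf2, which does the same reduction, had 0.331 to 4.43 CPM in WT and 2.17 to 2.92 CPM in SIRPα KO, too few reads for a direction (-0.03 ± 0.75).

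**Figure D2:**
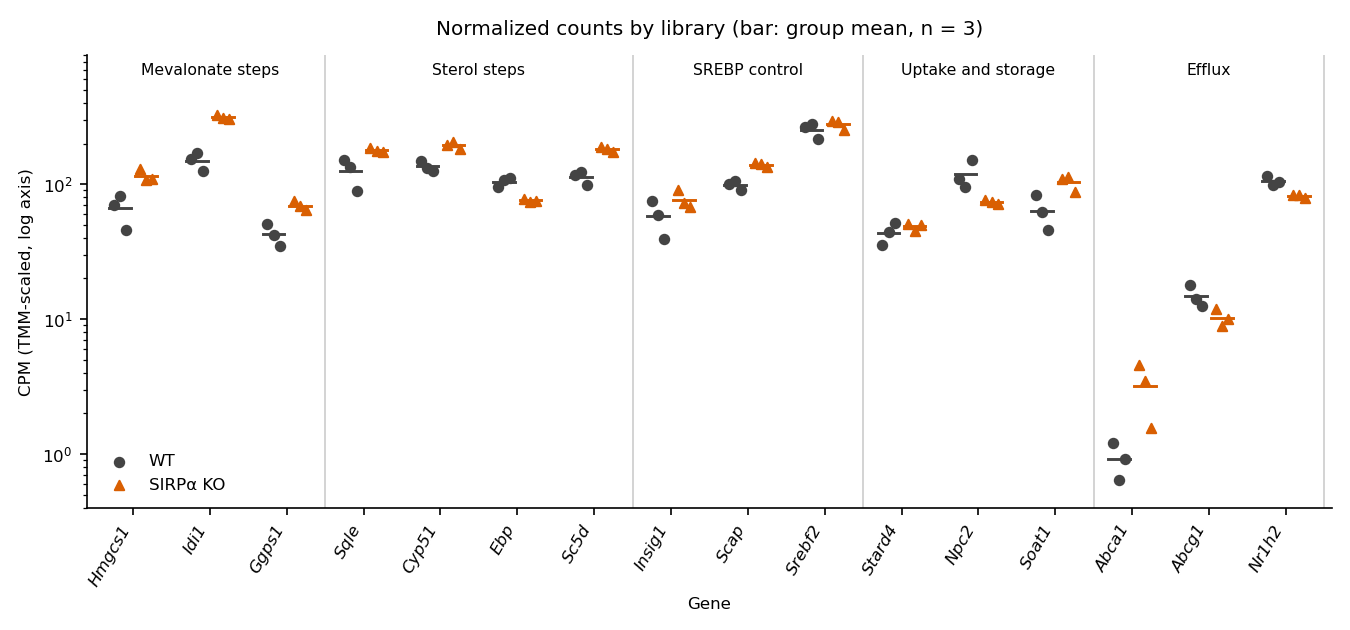
Normalized read counts (CPM, log axis) of 16 members (x axis) in each of 3 WT (circles) and 3 SIRPα KO (triangles) libraries, with group means as bars. Idi1 lies at 125 to 169 CPM in WT and 305 to 328 CPM in SIRPα KO, while Abca1 lies between 0.640 and 4.6 CPM.

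Among the regulators, only Scap passed the test. Scap, the SREBP escort (chr9:110333288-110384950), had 101, 105 and 90.6 CPM in WT and 144, 141 and 133 CPM in SIRPα KO. The groups did not overlap and the values were tight in each (log2 fold change 0.50 ± 0.12, adjusted p = 0.0348). Of its exons, 13.2% overlap 5830462I19Rik on the opposite strand.

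The other 4 regulators had overlapping groups. Srebf2, whose product drives the cholesterol genes, had 266, 277 and 217 CPM in WT and 296, 290 and 251 CPM in SIRPα KO (log2 fold change 0.14 ± 0.13, adjusted p = 0.487). Srebf1, whose product drives fatty acid genes above all, was at -0.10. Insig1, itself a classical SREBP target, had 75.1, 58.7 and 39.3 CPM in WT and 89.8, 72.0 and 67.4 CPM in SIRPα KO, so that SIRPα KO replicates 2 and 3 lay below WT replicate 1 (0.40 ± 0.24, adjusted p = 0.280). Insig2 was at -0.05.

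In uptake, transport and storage, Npc2 fell. Npc2 is the soluble lysosomal protein that hands cholesterol to the membrane protein Npc1 for export (chr12:84754562-84773152). It had 110, 95.7 and 151 CPM in WT and 76.8, 73.8 and 71.0 CPM in SIRPα KO, with no overlap (log2 fold change -0.69 ± 0.18, adjusted p = 0.0462). Npc1 overlapped between the groups (-0.03 ± 0.20).

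Soat1, which esterifies cholesterol for storage in lipid droplets, had 82.9, 62.6 and 45.5 CPM in WT and 110, 112 and 88.1 CPM in SIRPα KO. The groups did not overlap, but the difference did not pass the test (0.70 ± 0.22, adjusted p = 0.0786). Stard4, a carrier of cholesterol between membranes, had 35.5, 44.4 and 51.5 CPM in WT and 50.6, 45.1 and 50.2 CPM in SIRPα KO, and the groups overlapped (0.15 ± 0.17, adjusted p = 0.576).

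No efflux member passed the test, although all 3 had an unadjusted edgeR p under 0.05 and no overlap between the groups. Both traits were common in the whole table. Of all 13623 genes tested, 4355 had an unadjusted edgeR p under 0.05, and 42.8% had no overlap. Abca1, the transporter that loads cholesterol onto lipid-poor apolipoprotein, was hardly expressed. It had 21, 9 and 14 reads in WT and 72, 66 and 25 in SIRPα KO, or 1.21, 0.640 and 0.927 CPM against 4.6, 3.46 and 1.55 CPM. The SIRPα KO libraries were higher and spread over a wide range (log2 fold change 1.78 ± 0.55, adjusted p = 0.0729). Macrophages also express Abca1. Of their 10 tested markers, Itgam alone passed the test, as given above, and the median log2 fold change was 0.31. The others went both ways. Mrc1 had 0.0 to 0.265 CPM in WT and 0.930 to 1.42 CPM in SIRPα KO, while Chil3 was at 0.08, Cd68 at -0.31 and Marco at -1.46. The summed level of these markers overlapped between the groups. The part of such cells in the Abca1 values was not tested.

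Abcg1, the partner transporter that passes cholesterol to mature lipoproteins, had lower values in all SIRPα KO libraries, with 17.9, 14.2 and 12.6 CPM in WT and 11.8, 8.87 and 10.1 CPM in SIRPα KO (-0.54 ± 0.23, adjusted p = 0.149). Nr1h2, which encodes LXRβ, had 114, 98.0 and 103 CPM in WT and 82.8, 82.7 and 78.6 CPM in SIRPα KO (-0.37 ± 0.12, adjusted p = 0.0796). The pair of LXR target transporters thus had values of opposite sign, and neither passed.

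To set synthesis against efflux, the log2 CPM values were averaged over the 20 synthesis members and over the 3 efflux members in each library. Synthesis was 5.96, 5.97 and 5.74 in the WT libraries and 6.21, 6.12 and 6.10 in the SIRPα KO libraries. The groups did not overlap, and the means were 5.89 ± 0.13 and 6.14 ± 0.06 (SD, n = 3), a difference of 0.25. Efflux was 3.81, 3.36 and 3.48 in WT and 4.06, 3.79 and 3.47 in SIRPα KO, and the groups overlapped (3.55 ± 0.23 against 3.77 ± 0.30). Synthesis minus efflux was 2.34 ± 0.24 in WT and 2.37 ± 0.24 in SIRPα KO, a difference of 0.02 that is far smaller than the spread in either group.

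By fold changes of single genes, synthesis had a median of 0.22, with 12 of 20 above zero and 5 called higher and 1 lower. Efflux had a median of -0.37, which is the value of Nr1h2, with none of 3 called. The efflux median and the efflux mean differed in sign, because Abca1 at 1.78 pulled the mean up while Abcg1 and Nr1h2 were below zero. No p is given for these averages, since the members were chosen by name.

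**Figure D3:**
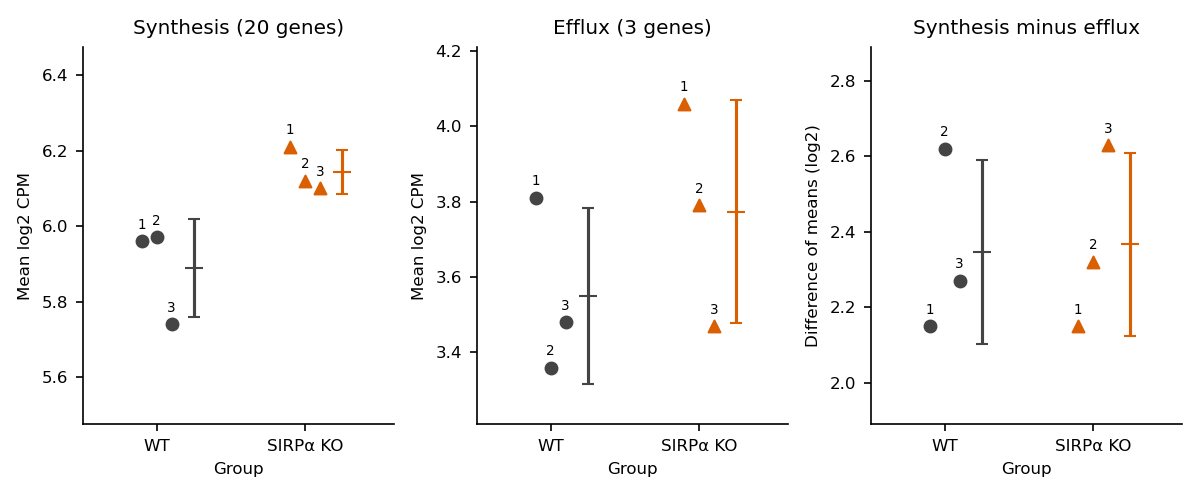
Mean log2 CPM over 20 synthesis genes, over 3 efflux genes, and their difference (y axes, each spanning 1 log2 unit) in the 3 WT and 3 SIRPα KO libraries (x axis), numbered by replicate, with mean ± SD beside the points. Synthesis separates the groups (5.74 to 5.97 against 6.10 to 6.21), while efflux and the difference overlap.

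Fold changes in these libraries ran with transcript length across the whole table. When genes averaging 3 or more on the log2 CPM scale were split by length into 10 equal bins, the shortest had a median of -0.55 and the longest of 0.47. Of the 7 members of 2500 bases or less, 1 had a fold change above and 6 below zero, and of the 25 longer ones, 17 were above and 8 below. The 6 called higher had transcripts of 3027 to 4787 bases, while Ebp has 1743 and Nr1h2 1999. Idi1, Hmgcs1 and Npc2 lay furthest from the median of their bin among the 8 called members, as the plot of fold change against length shows.

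With length and GC content corrected, the bin medians lay between 0.06 and 0.11 and 8.64% of all genes were called, 5.03% higher and 3.61% lower. Of the members, 2 were then called, both higher: Idi1 (0.91 ± 0.11, adjusted p = 0.00681) and Scap (0.60 ± 0.11, adjusted p = 0.0210). Npc2 kept its value of -0.69 with an adjusted p of 0.0506. Sc5d was at 0.34 (adjusted p = 0.0550), Hmgcs1 at 0.60 (0.0739), Cyp51 at 0.32 (0.0810), Ggps1 at 0.38 (0.129) and Ebp at -0.17 (0.373), all edgeR adjusted p-values. The mevalonate median moved from -0.09 to 0.25 with 7 of 8 above zero, and the sterol median from 0.26 to 0.12 with none called. Nr1h2 turned to 0.11, and the efflux median with it, since Nr1h2 is the middle of the 3 efflux members. Abcg1 was at -0.72 (edgeR adjusted p = 0.0681), against -0.54 before, and its groups stayed apart. Abca1 was at 1.32 (edgeR adjusted p = 0.174), and its groups then overlapped. The synthesis average still separated the groups, at 5.90 ± 0.12 against 6.13 ± 0.06, but the average over the sterol members alone overlapped (5.92 ± 0.24 against 6.09 ± 0.06). Whether the slope with length came from the cells or from the libraries was not tested.

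**Figure D4:**
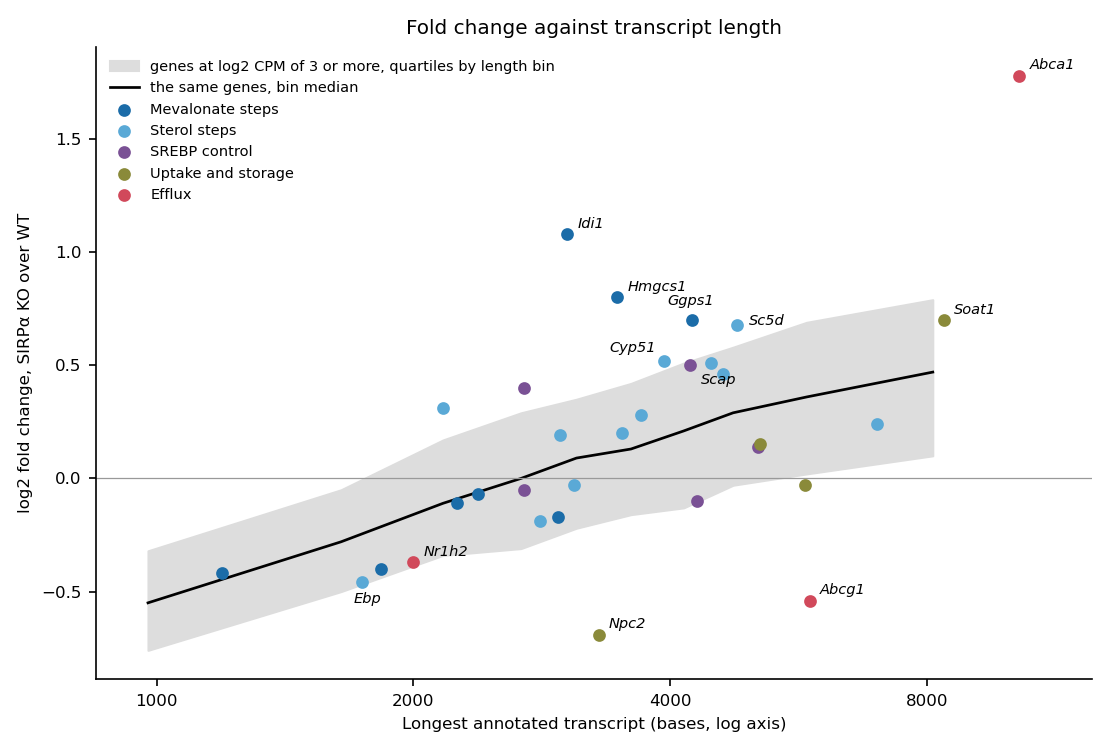
Log2 fold change (y axis) against the length of the longest annotated transcript (x axis, log scale). The line and band give the median and quartiles of genes averaging 3 or more on the log2 CPM scale in 10 length bins, from -0.55 to 0.47, and the points are the 32 members coloured by role; Idi1 at 1.08, Hmgcs1 at 0.80 and Npc2 at -0.69 are among those outside the band.

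The calls also rested on all 3 SIRPα KO libraries. With any 1 of them left out, edgeR called no member, and 16 or 17 of all genes. Each time 10 members had an unadjusted p under 0.05, as did 2935 to 3183 of the 14141 to 14242 genes tested. With the libraries of a shared code summed, which leaves 2 against 2, no member was called, and 10 of all 14581 genes tested were. There 11 members had an unadjusted p under 0.05, as did 3359 of all genes. Over 14 other ways of processing, the 8 called members kept their sign and some changed much in size: Idi1 ran from 0.91 to 1.18, Sc5d from 0.34 to 0.76, Ggps1 from 0.38 to 0.86 and Ebp from -0.57 to -0.17, while 10 uncalled members changed sign under at least 1 of them. DESeq2 called 11 members, adding Abca1, Soat1 and Nr1h2, and it called more genes of the whole table as well, 3170 of 12977. Without WT replicate 1, Hmgcs1, Scap, Ebp and Npc2 were not called, without WT replicate 2, Ggps1 and Ebp were not, and without WT replicate 3, Sqle and Nr1h2 were called as well. Of all genes tested, these fits called 1111 of 14078, 2309 of 14150 and 2606 of 14143, in that order. Within its group, WT replicate 3 was the lowest or highest library for 28 of 32 members, 20 times the lowest, and SIRPα KO replicate 1 was so for 28 as well, 23 times the highest. The overall coefficient of biological variation was 38.1% in WT, 27.9% without that replicate, and 15.2% in SIRPα KO.

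Levels of different genes were compared per length, as reads per kilobase of transcript scaled to the same sum in each library (the TPM scale). In WT, Lbr was highest at 203 ± 54.6 (SD, n = 3), then Fdps at 157 ± 8.64, Ebp at 127 ± 7.87, Nr1h2 at 112 ± 14.5, Srebf2 at 107 ± 21.9, Idi1 at 105 ± 23.5 and Srebf1 at 99.6 ± 15.9. Lbr and Fdps did not differ beyond their spread, nor did neighbours in the order from Ebp down to Srebf1, while Fdps and Ebp did. At the low end were Abcg1 at 5.48 ± 1.39, Tm7sf2 at 1.81 ± 1.52 and Abca1 at 0.192 ± 0.0647. In SIRPα KO, Idi1 stood at 251 ± 9.30, beside Lbr at 263 ± 8.47, so by order within a group Idi1 went from the middle of the upper members to the level of the highest. Between the groups this scale can differ from CPM in direction. Acat2 went from 68.0 to 72.6 on it but from 72.6 to 67.4 CPM, and Srebf1 from 99.6 to 106 but from 201 to 187 CPM. It is used here only to order genes within a group. Lbr far exceeded Tm7sf2, its counterpart for the same reduction, in both groups.

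**Figure D5:**
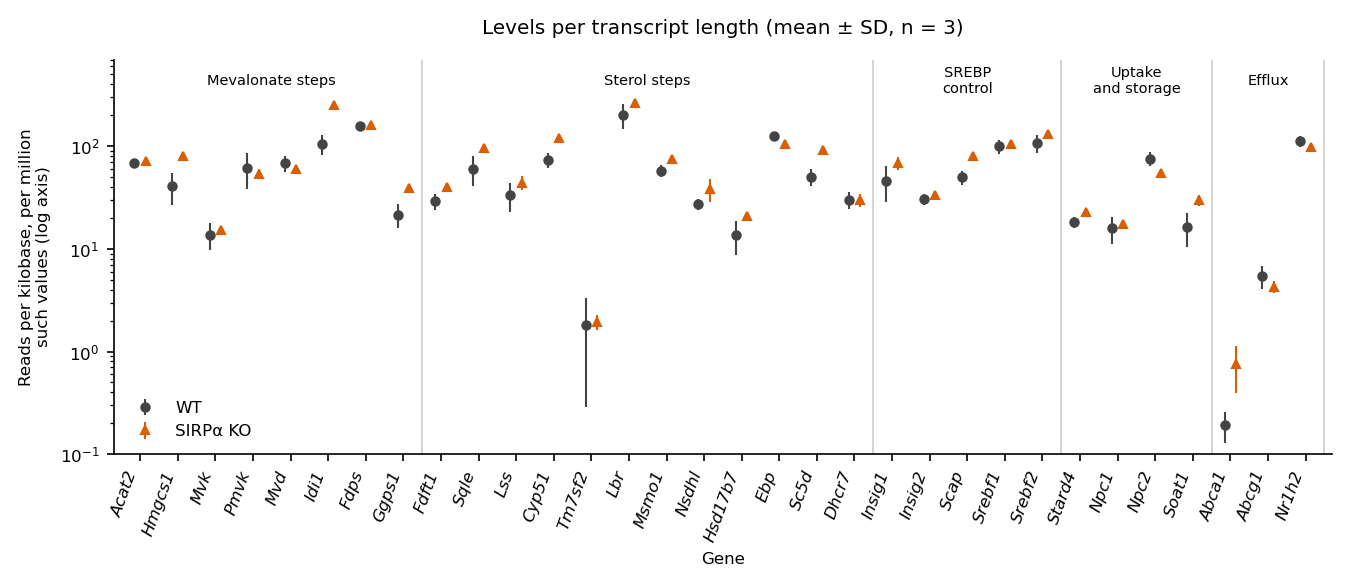
Level per transcript length (y axis, log scale, mean ± SD of 3 libraries) of each member (x axis) in the order of the route, WT as circles and SIRPα KO as triangles. In WT the members run from 0.192 for Abca1 and 1.81 for Tm7sf2 to 203 for Lbr, and Idi1 is at 105 in WT and at 251 in SIRPα KO. The scale orders genes within a group, and its differences between groups can depart from those in CPM.

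Other genes of the same routes were counted from fixed lists, 71 genes in all, of which 67 were in the table and 65 were tested. Of these, 6 were higher and 1 was lower, or 10.8%, a share close to the 11.7% of all genes. In SREBP control, 1 of 9 was called, Erlin2, an endoplasmic reticulum protein that helps degrade sterol-regulated proteins, at 0.76 (adjusted p = 0.0263). Among 14 isoprenoid users, 1 was called, Zmpste24, a protease that trims prenylated proteins, at 0.61 (adjusted p = 0.0395). With the length and GC correction neither was called, Erlin2 at 0.46 (adjusted p = 0.112) and Zmpste24 at 0.33 (adjusted p = 0.109). Among 20 genes of uptake and storage, 1 was called and it was lower, the sterol-binding protein Osbpl5, at -2.37 (adjusted p = 0.0253). Osbpl5 was also called after the correction, together with Scarb2 and Gramd1b, both at -0.54. Of all 13623 genes tested, 4355 had an unadjusted edgeR p under 0.05. Of 9 other efflux and LXR genes none was called, with a median of -0.30, 3 at such a p and none of the 3 higher. After the correction that median was -0.02, with 4 above and 5 below zero, and of the 3, Rxrb turned to 0.07, Plin2 was at -0.02 and Smpdl3a at -0.45.

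The fatty acid genes driven by SREBP-1 were the exception among these lists, with 4 of 13 called, all higher, and a median of 0.56. After the length and GC correction the median was 0.35. The share called was 30.8% with and without the correction, while that of the synthesis members was 30% without it and 5% with it. Acaca, the carboxylase that commits acetyl-CoA to fatty acids, had 20.4, 30.2 and 22.0 CPM in WT and 55.5, 59.1 and 55.7 CPM in SIRPα KO (1.23 ± 0.18, adjusted p = 0.0138). Fasn, the fatty acid synthase, had 250, 296 and 189 CPM in WT and 502, 503 and 458 CPM in SIRPα KO (0.99 ± 0.16, adjusted p = 0.0158). In both genes every SIRPα KO library was far above every WT library. The desaturase Scd2 was at 1.0 (adjusted p = 0.0252) and malic enzyme Me1, a source of NADPH, at 0.82 (adjusted p = 0.0175). All 4 were also called after the length and GC correction, at 0.67 to 0.85. Fads1, Fads2 and Acss2, which are SREBP targets too, were at 0.00, -0.24 and 0.00 and did not pass. No test compared this list with the cholesterol members. All lists were chosen with earlier results of these data known, so the share called in this list is a description only.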

How the data were processed

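Bulk RNAseq of sorted, cultured lung ILC2s was analysed in 3 WT and 3 SIRPα KO libraries, grouped by their labels. cDNA was made from 10 pg of RNA per sample with the SMARTer Ultra Low Input v3 kit. Reads were aligned with STAR in Partek to mm10 with the GENCODE M21 annotation. The submitters' processing notes give STAR 2.7.8 and Partek 10.0, and other versions are given in the methods of the study. The authors deposited estimated counts per gene, not scaled for depth. The counting tool, strand use and treatment of multiply mapped reads are not given in the sources used here. Of the values in a library, 56.9% to 60.7% were exactly whole, with no tolerance, and no gene in the table had a total under 10. The table has 17831 gene columns, of which 185 were recorded singly and 17646 were not. The latter have the same unit and enter the fit across all genes. Between 13980491 and 19051504 reads per library set the counting error.

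Counts were rounded, filtered with filterByExpr (10 reads in a library of median size, 15 in total), given TMM factors and compared by the edgeR quasi-likelihood test on genotype alone, with Benjamini-Hochberg adjustment over 13623 genes and a threshold of 0.05. R 4.3.3, edgeR 4.0.16, limma 3.58.1, DESeq2 1.42.0, BLAST+ 2.17.0, pandas 2.3.3 and matplotlib 3.10.9 were used. Standard errors were taken from the F statistic. An exact permutation test of a single value cannot go below 0.10 with 3 against 3, so none is given. To correct for length and GC content of transcripts, splines with 5 degrees of freedom were fitted to each library over 8856 genes outside the lists whose average log2 CPM was 3 or more, and used as an offset. The longest annotated transcript gave the length. Symbols were matched to the annotation for 17400 genes directly and 189 through synonyms, and 242 were not matched. A near-identical copy was a transcript of 95% identity or more covering 50% or more of a member, which held for Acat3 alone. Matches at that identity over a smaller part of a member were recorded too, and some of them are given above. Promoters are from RefSeq. The script was tested on simulated data.

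The members and lists were chosen with earlier results of these data known. Values in every library are given for each member past the threshold and for the 3 members with the largest fold change in each role group, and other members by fold change. Alternatives were DESeq2, RLE and upper quartile scaling, no filter and a filter of 1 CPM in 3 libraries, a replicate block, summing libraries of one code, leaving out each library, and the length and GC correction. The single-cell data, cytometry and respiration measurements of the study were not analysed here.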

Additional observations from a re-analysis of the deposited data

How the results depend on the processing

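With 6 members higher and 2 lower as reported, DESeq2 gave 8 and 3, RLE scaling 6 and 2, upper quartile scaling 5 and 3 (with the median of all genes at -0.125), and a filter of 1 CPM in 3 libraries 6 and 2. Of all genes, 1600 of 13623 were called as reported, 3170 of 12977 with DESeq2 and 1743 of 12683 with that filter. RLE scaling called 1609 and upper quartile scaling 1713 of the 13623. Without a filter on low counts 4 and 0 members were called, with the libraries of one code summed 0 and 0, and with the length and GC correction 2 and 0. These settings called 1151 of 17831, 10 of 14581 and 1177 of 13623 genes. Leaving out 1 library gave 0 to 7 members higher and 0 to 3 lower, with 16 to 2606 of all genes called. The numbers of the replicates did not pair the samples (correlations of deviations -0.143, 0.191 and 0.045). With the replicate block 5 members were called higher and 0 lower, 4 of them among the 8, and 1118 of all 13623 genes were called. Of the other pathway genes, 6 higher and 1 lower became 13 and 2 with DESeq2, 0 and 0 with libraries of one code summed, 0 to 11 and 0 to 2 with a library left out, and 4 and 3 with the length and GC correction. With that correction the efflux median, which was the value of Nr1h2 before and after, moved from -0.37 to 0.11. The synthesis median less the efflux median moved from 0.59 to 0.10. The cause of these changes was not tested.

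Of 448 single-gene values under 14 alternatives, 366 kept direction and side of the threshold, 53 lost it, 8 gained it and 21 changed sign, none of them of the 8 members called. With the length and GC correction the sign changed for Acat2 (0.03), Mvk (0.24), Pmvk (0.26), Mvd (0.11), Lss (-0.09), Stard4 (-0.23) and Nr1h2 (0.11). With a library left out, Acat2 ran from -0.20 to 0.01, Mvk from -0.30 to 0.25 and Pmvk from -0.64 to 0.05, each turning without WT replicate 3, Tm7sf2 from -0.54 to 0.67, Insig2 from -0.12 to 0.01 and Npc1 from -0.17 to 0.17. Tm7sf2 turned to 0.38 with the replicate block, and with codes summed it was at 0.23, Insig2 at 0.01 and Npc1 at 0.10. Depth limits Abca1 and Tm7sf2 most, with under 100 reads in any library.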

Other observations

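The 3 mevalonate members called higher, Hmgcs1, Idi1 and Ggps1, all lie on chromosome 13, which was noticed after their values were seen. Of the 541 tested genes placed there, 57 were called higher, or 10.5%, beside 5.98% of the 13484 tested genes with a known position. With the length and GC correction these shares were 7.58% and 5.06%, and the median log2 fold change was 0.12 on chromosome 13 and 0.07 overall. The difference was not tested.

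Products of the mevalonate route other than sterols had users with values mostly above zero. Of 14 isoprenoid users, 13 were above zero, the median being 0.21 on the log2 scale, and Zmpste24 alone was called. Of all 13623 genes tested, 6593 were above zero, with a median of -0.03. With the length and GC correction 12 of the 14 were above zero, their median was 0.32 and none was called. Of all genes, 7541 were then above zero, with a median of 0.07. The list was chosen with earlier results of these data known, and the difference was not tested. Pdss1, a subunit of the enzyme that makes the ubiquinone side chain, averaged 18.5 CPM in the WT libraries and 28.6 CPM in the SIRPα KO libraries, with no overlap (log2 fold change 0.63 ± 0.20, edgeR adjusted p = 0.0739).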
